A study of Mus musculus with 24 samples.

Results

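The 484 genomic sites described here carried histone H3 acetylated at lysine 27 (H3K27ac) in tumour and wound fibroblasts of the mouse, and had no H3K27ac summit in embryonic fibroblasts. The data are ChIP-seq peak lists of 17 libraries from 3 kinds of cultured fibroblasts. Embryos gave the MEF, MMTV-PyMT mammary tumours gave the cancer-associated fibroblasts (MMTV-CAF), and dorsal skin wounds at day 10 gave the wound fibroblasts. Every H3K27ac summit of the 7 H3K27ac lists was widened by 250 bp on each side and overlapping windows were merged into 100984 sites. A site was kept when it held a summit from all 4 MMTV-CAF and wound lists and from none of the 3 MEF lists, which chose 0.479% of all sites. The sites were thus chosen by their H3K27ac calls. The presence and strength of H3K27ac therefore describe how the sites were chosen and are given without a test, while H3K4me3, Prrx1, DNA sequence and gene position were not used in the choice.

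The 4 lists that had to hold a site came from MMTV-CAF of FVB/NJ background and wound fibroblasts of C57BL/6 background, each as wild type (WT, cells given the control guide SgNS) and as SG, in which Prrx1 was targeted by CRISPR/Cas9 with a guide RNA. The 3 MEF lists came from embryos of E10 to E13 of C57BL/6 background, as WT, SG and KI. KI is not spelled out in the labels and was read as the Prrx1 mutant mouse of the labels (129S-Prrx1tm1Jfm/Mmmh), in which the study describes lacZ inserted into the homeodomain. All cells, controls included, had been immortalised with HPV E6/E7 and grown in DMEM with 10% serum. Each group was 1 library. Wound fibroblasts and MEF share the C57BL/6 label, while MMTV-CAF differ from both in strain as well as in type. Embryonic or adult origin, tissue and culture cannot be told apart between MEF and the others, and no difference between groups has a replicate check. Intervals are Wilson 95% intervals and cover counting error over sites only.

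H3K27ac marks active promoters and enhancers, and H3K4me3 is found mainly at the promoters of active genes. Prrx1 is a homeodomain transcription factor of mesenchymal cells, and homeodomain proteins of this family bind sequences built on TAATTA. Fibroblasts that are activated in wounds and tumours lay down and remodel extracellular matrix, a state in which AP-1 and Tead factors and the TGF-beta pathway are known to act.

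The sequences below are DNA of the mm9 assembly (NCBIM37), read 5′ to 3′ on the plus strand. The first 5 hold 60 bases on either side of the Prrx1 summit of MMTV-CAF at the 5 shared sites where Prrx1 ranked best in both MMTV-CAF and wound fibroblasts out of 12 shared sites with Prrx1 in both, and they are shown as the best-ranked examples of that overlap. Capitals mark TAATTA, the homeodomain core, or TGANTCA, the AP-1 letters.
Spring1, nearest TSS, chr5:118830779-118830899: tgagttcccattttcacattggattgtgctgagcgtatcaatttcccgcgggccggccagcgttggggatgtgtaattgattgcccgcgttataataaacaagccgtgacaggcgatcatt
Tet1, intron, chr10:62314005-62314125: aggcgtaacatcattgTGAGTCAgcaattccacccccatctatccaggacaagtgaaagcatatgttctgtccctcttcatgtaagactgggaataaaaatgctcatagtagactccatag
Zfp984, promoter, chr4:147183956-147184076: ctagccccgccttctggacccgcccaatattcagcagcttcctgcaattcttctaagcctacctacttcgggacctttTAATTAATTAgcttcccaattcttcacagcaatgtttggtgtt
Col4a1, intron, chr8:11259797-11259917: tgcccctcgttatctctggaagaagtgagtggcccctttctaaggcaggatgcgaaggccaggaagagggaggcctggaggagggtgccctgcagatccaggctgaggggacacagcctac
Gnas, promoter, chr2:174152756-174152876: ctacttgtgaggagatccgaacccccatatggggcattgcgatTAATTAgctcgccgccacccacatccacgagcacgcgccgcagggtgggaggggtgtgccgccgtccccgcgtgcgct
TAATTA was present in the Zfp984 and Gnas stretches, TGANTCA in the Tet1 stretch, and neither in the Spring1 and Col4a1 stretches.

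The next 3 stretches hold 100 bases on either side of the centre of shared sites that lay more than 10 kb from any MEF H3K27ac summit and held TGANTCA within 100 bp of the centre. They were picked for these letters after the values were seen and are not typical, since 6 of 86 such distant sites (6.98%) held them there, with 2 of the 88 not searched.
Mid1 intron, chrX:166424580-166424780: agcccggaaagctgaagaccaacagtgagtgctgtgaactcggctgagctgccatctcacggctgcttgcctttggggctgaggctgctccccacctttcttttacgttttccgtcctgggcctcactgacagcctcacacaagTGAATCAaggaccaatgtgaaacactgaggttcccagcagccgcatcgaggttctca
Nsmce2 intron, chr15:59352069-59352269: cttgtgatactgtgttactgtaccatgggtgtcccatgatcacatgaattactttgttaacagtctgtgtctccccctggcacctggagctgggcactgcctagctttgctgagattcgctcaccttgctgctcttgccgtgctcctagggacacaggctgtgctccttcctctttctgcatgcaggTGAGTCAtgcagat
Pla2g2e promoter, chr4:138433862-138434062: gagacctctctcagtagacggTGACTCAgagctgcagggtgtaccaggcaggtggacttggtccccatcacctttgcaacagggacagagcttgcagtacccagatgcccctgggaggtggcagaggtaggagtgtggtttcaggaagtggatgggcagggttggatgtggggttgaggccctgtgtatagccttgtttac

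The H3K27ac lists held 29325 (MEF KI) to 61603 (MMTV-CAF SG) summits, and the wound WT list was the shortest of the 4 that had to hold a site, with 33465. The sequencing depth behind the lists is unknown, and a summit missing from a list was not detected there rather than shown to be absent. H3K4me3 over the transcription start site (TSS) was used to check the cell type. Of 12 fibroblast markers, 6 to 11 had it in a MEF list, 9 in each MMTV-CAF list and 7 to 8 in a wound list. Of all protein-coding genes, 41.6% (MEF KI) to 55.4% (wound SG) had it. The 6 of 12 in MEF KI and 7 of 12 in wound SG were near that share, so the check is weak there. Col3a1, Dcn, Lum and Fap lacked it in both wound lists. By comparison, 0 to 5 of 17 epithelial, 1 of 9 leukocyte (Cd14), 1 of 7 endothelial and 1 to 4 of 7 mural cell markers had it in a list. Cdh1, Cdh3 and Krt19 had it in both wound lists, and Cdh1 and Cdh3 also in MEF WT and MEF SG. The part of such cells in the shared sites was not tested.

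Acetylation common to tumour and wound fibroblasts was rarely missing from MEF. Of the 16606 sites held by all 4 MMTV-CAF and wound lists, 10680 (64.3%) were also in all 3 MEF lists, 4416 were in 2 of them, 1026 in 1, and the 484 shared sites (2.91%) in 0. The opposite set, in all 3 MEF lists and none of the 4 others, held 396 sites. The 1026 sites kept out by 1 MEF list only were held by MEF SG at 439, MEF WT at 359 and MEF KI at 228. Just outside the rule lay sites near Adamts2 and Diap3 with a −log10 p of 5.06 in MEF WT and near Ypel2 with 5.19 in MEF KI, while the median over the 1026 was 14.6. Just inside it lay the site near Lrig1 at 502 bp from a MEF summit, and a Pdlim7 exon site with a −log10 p of 5.27 in MMTV-CAF SG. Without the wound WT list the rule chose 1656 sites, and it chose 925 without MEF SG, 877 without wound SG, 858 without MEF WT, 739 without MEF KI and 729 without MMTV-CAF WT.

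Beside all sites of each list, the shared sites were of middle strength in MMTV-CAF and weak in wound WT. Their median −log10 p was 18.5 in MMTV-CAF WT, 22.7 in MMTV-CAF SG, 10.8 in wound WT and 15.7 in wound SG, against medians over all sites of each list of 17.0, 18.8, 16.3 and 17.1. The sites in all 4 lists and at least 1 MEF list were stronger in each, with medians of 42.8, 49.0, 22.3 and 35.1 in the same order. The wound WT list gave the weakest value at 297 of the 484 sites. When the 16606 sites were put in 4 classes by the weakest of their 4 values, the lowest class (5.01 to 12.3) held 355 shared sites, 8.53% of its sites, and the highest (32.1 to 127) held 14, or 0.340%. Sites in all 7 lists made up 35.9% of the lowest class and 90.3% of the highest.

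**Figure D1:**
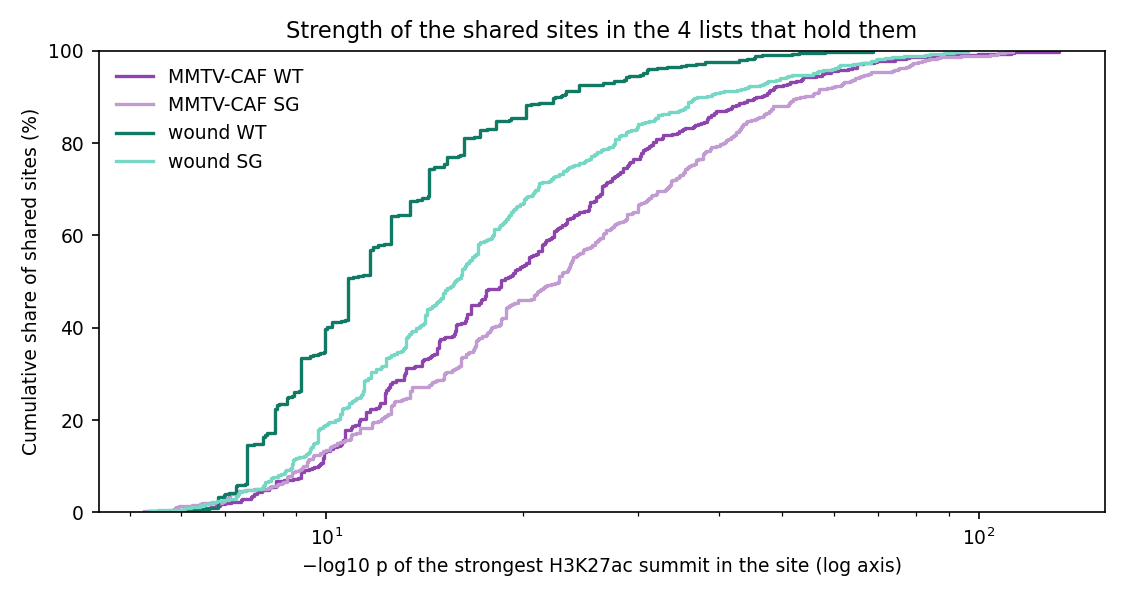
Cumulative share of the 484 shared sites (vertical axis, %) against the −log10 p of the strongest H3K27ac summit in the site (horizontal axis, log scale), with 1 line for each of the 4 lists that hold the sites. The wound WT line lies farthest to the left, with a median of 10.8, and the MMTV-CAF SG line farthest to the right over most of its length, with a median of 22.7.

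Most shared sites lay beside acetylation that MEF also had. The nearest MEF H3K27ac summit was 502 bp away at the closest and 421 kb at the farthest, with a median of 1742.5 bp. It lay within 1 kb of 165 sites (34.1%), within 2 kb of 261 (53.9%) and within 10 kb of 396 (81.8%), and 88 sites had none within 10 kb. The 10 sites with the best ranks over the 4 lists all had one between 0.511 and 0.895 kb away, and 64 of the best 100 had one within 1 kb. The mirror set gave a like picture, with the nearest MMTV-CAF or wound summit within 1 kb of 45.7% and within 2 kb of 56.1% of its 396 sites. Asking for no MEF summit within 2 kb of the merged site left 210 shared sites.

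**Figure D2:**
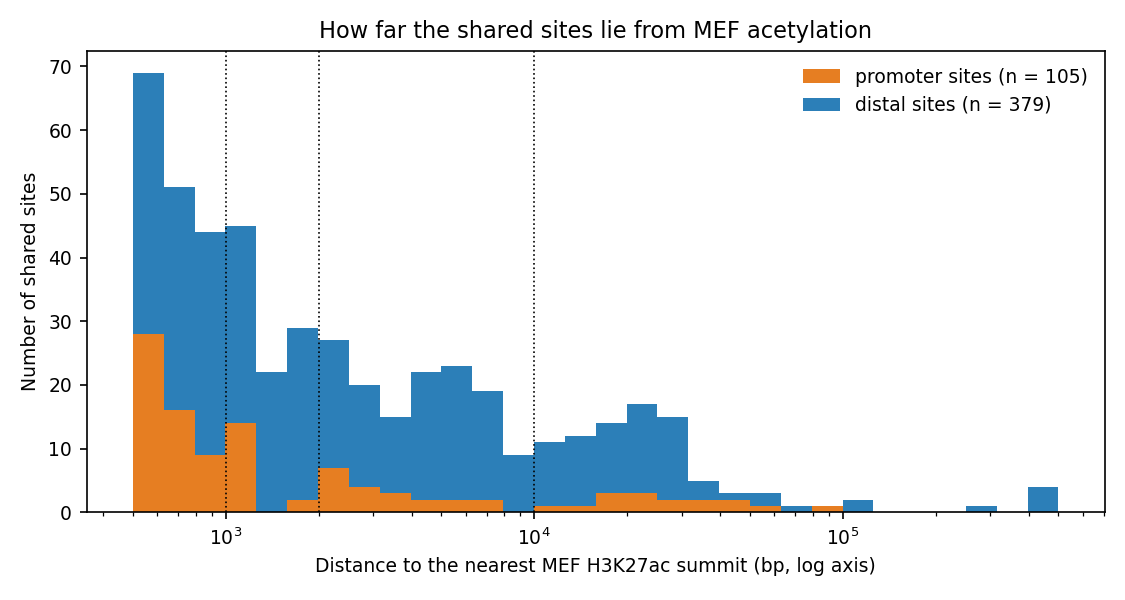
Number of shared sites (vertical axis) by distance from the nearest summit of the site to the closest MEF H3K27ac summit (horizontal axis, bp, log scale), stacked for the 105 promoter and 379 distal sites. Dotted lines mark 1, 2 and 10 kb, and the bars are tallest next to the smallest distance the rule allows.

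Promoters were more common close to MEF acetylation. Of the 165 sites within 1 kb, 53 (32.1%) were promoters and 61 (37.0%) were under H3K4me3 in all 7 lists. The 88 sites beyond 10 kb held 16 promoters (18.2%) and 9 sites (10.2%) under H3K4me3 in all 7 lists. Their nearest genes numbered 81. The farthest were a pair in the introns of Kank1, an adaptor of the actin cytoskeleton, at 421 and 412 kb. The site at chr19:25489569-25490131 had −log10 p values of 19.0 (MMTV-CAF WT), 52.5 (MMTV-CAF SG), 16.0 (wound WT) and 28.1 (wound SG), with H3K4me3 in both MMTV-CAF lists only. Promoter sites beyond 10 kb included Hoxc13 (44.7 kb), Zfp984 (38.2 kb), Arhgap22 (61.8 kb), Trim13 (42.5 kb) and Ugt1a7c (85.7 kb). Kank1, Arhgap22, Trim13 and Ugt1a7c were named after their values were seen.

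By annotation, 105 shared sites (21.7%, 18.3 to 25.6) had their centre within 1 kb of a protein-coding TSS, against 20.5% of all sites. This was well under the 59.3% among the 16122 sites in all 4 lists and at least 1 MEF list, and above the 13.6% of the mirror set (10.6 to 17.4). The promoter share was 30.4% with a −log10 p of at least 10 in the 4 lists, 32.3% with lists of equal length, 35.7% with windows of 100 bp, and 32.6% with a promoter distance of 2 kb. It was 14.9% with windows of 500 bp, 15.2% with no MEF summit within 2 kb and 17.1% without the wound WT list. The share of all sites was not recomputed under these settings, so these values cannot be set against 20.5%. Introns outside promoters held 224 (46.3%, against 40.1% of all sites), intergenic DNA 134 (27.7%, against 36.3%) and exons 21 (4.34%, against 3.14%). The median distance to a TSS was 7.21 kb, against 11.2 kb for all sites and 0.432 kb for the 16122. Sites were 505 to 3343 bp wide with a median of 791.5 bp, and 51.1% of the bases around their centres were G or C (median), against 48.1% over all sites and 57.5% over the 16122.

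The 10 best-ranked shared sites, by the worst of their 4 ranks, were 5 promoter sites and 5 sites in introns or between genes. The first was in an intron of Rnd3, which opposes actin contraction, at chr2:51002675-51003730. Its −log10 p was 112 in MMTV-CAF WT, 109 in MMTV-CAF SG, 58.1 in wound WT and 79.4 in wound SG. The site at chr10:98724612-98725166 lay 1003 bp from the TSS of Dusp6, a phosphatase that switches off ERK, with 87.8, 113, 51.6 and 91.4 in the same order. A MEF summit lay 0.58 kb from the Rnd3 site and 0.588 kb from the Dusp6 site, and both sites were under H3K4me3 in all 7 lists.
The others were intergenic near Spaca6 (Ncrna00085 in the annotation, 42.8 to 133 over the 4 lists), in introns of the zinc-finger gene Bnc2 (36.8 to 74.2) and of Sh3pxd2a, with Neurl1a as the nearest TSS (35.0 to 83.7), and at 5 promoters. In each of the 10 the wound WT value was the lowest. Of the 10, 7 were under H3K4me3 in all 7 lists, Timmdc1 in 6 (not MEF KI), and Bnc2 in MEF WT, both MMTV-CAF lists and wound SG.

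Hspb2, a small heat shock protein of muscle, was the exception among the 10 best. Its promoter site at chr9:50559531-50560074 had −log10 p values of 99.7 (MMTV-CAF WT), 104 (MMTV-CAF SG), 46.6 (wound WT) and 51.0 (wound SG), and H3K4me3 in these 4 lists and in no MEF list. The best 10 promoter sites were Gadd45b (stress response), Timmdc1 (assembly of respiratory complex I), Hspb2, Phf23, Hnrnpl (splicing), Col4a2, Amotl2, Etv4 (an ETS transcription factor), Zbtb38 and Camkk2 (a kinase upstream of AMPK). Apart from Hspb2, each had H3K4me3 in at least 6 of the 7 lists, MEF WT and MEF SG included. At the Gadd45b promoter the −log10 p was 69.0, 79.1, 35.6 and 59.6 in MMTV-CAF WT, MMTV-CAF SG, wound WT and wound SG. The Col4a2 promoter, shared head to head with Col4a1, had 92.0, 93.9, 68.9 and 46.7, and the Etv4 promoter 47.7, 62.2, 24.4 and 55.6.

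H3K4me3, which the rule did not use, covered more shared sites in MMTV-CAF than in the other cells. It overlapped 342 of 484 sites in MMTV-CAF WT (70.7%, 66.5 to 74.5) against 43.7% of all sites, and 292 in MMTV-CAF SG (60.3%) against 44.5%. In wound fibroblasts it overlapped 185 in WT (38.2%, 34.0 to 42.6) against 26.5%, and 218 in SG (45.0%) against 30.7%. In MEF the shared sites stood near the background, with 136 in WT (28.1%, 24.3 to 32.3) against 27%, 101 in KI (20.9%) against 20.6% and 116 in SG (24.0%) against 24.7%. The 16122 sites in all 4 lists and at least 1 MEF list lay higher in each list, from 62.8% in MEF KI to 89.1% in MMTV-CAF WT. The nearness of MEF WT to the background depended on how the sites were chosen, since its share was 43.3% at the 217 sites with a −log10 p of at least 10 in the 4 lists, 40.4% at the 285 sites left when all lists were cut to the same length, and 14.3% at the 210 sites with no MEF summit within 2 kb. The share of all sites was not recomputed under these settings.

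At the 379 distal sites the shares were 62.8% in MMTV-CAF WT against 32.1% of all distal sites, and 52.5% in MMTV-CAF SG against 33.3%. Wound WT had 25.3% against 11.9% and wound SG 33.8% against 16.5%. The MEF lists were closer to the background, with 15.6% in WT against 12.5%, 10.8% in KI against 7.15% and 13.2% in SG against 10.3%. Distal sites in all 4 lists and at least 1 MEF list lay higher than the shared sites when only H3K4me3 over the site centre was counted. They had 67.5% against 55.7% in MMTV-CAF WT and 64.5% against 43.8% in MMTV-CAF SG. In wound WT they had 25.2% against 22.2%, and in wound SG 32.9% against 27.7%.

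At the 105 promoter sites MEF lay below the background instead, with 73.3% in WT (64.2 to 80.9) against 83.5% of all promoter sites, 57.1% in KI against 72.8% and 62.9% in SG against 81.0%. In MMTV-CAF WT 104 of the 105 (99.0%) were covered against 88.6%, and MMTV-CAF SG had 88.6% against 87.9%. Wound WT had 84.8% against 83.4% and wound SG 85.7% against 85.8%, both near the background. Over the site centre, promoter sites in all 4 lists and at least 1 MEF list again lay higher than the shared ones. They had 99.1% against 97.1% in MMTV-CAF WT and 98.8% against 85.7% in MMTV-CAF SG. In wound WT they had 97.4% against 81.9%, and in wound SG 97.8% against 81.9%. The MMTV-CAF H3K4me3 lists held many weak regions, with a median −log10 p of 7.51 in WT. Counting only regions of at least 10, the share of shared sites was 37.8% in MMTV-CAF WT, 26.0% in wound WT and 23.3% in MEF WT, against 28.4%, 22.0% and 23.7% of all sites.

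**Figure D3:**
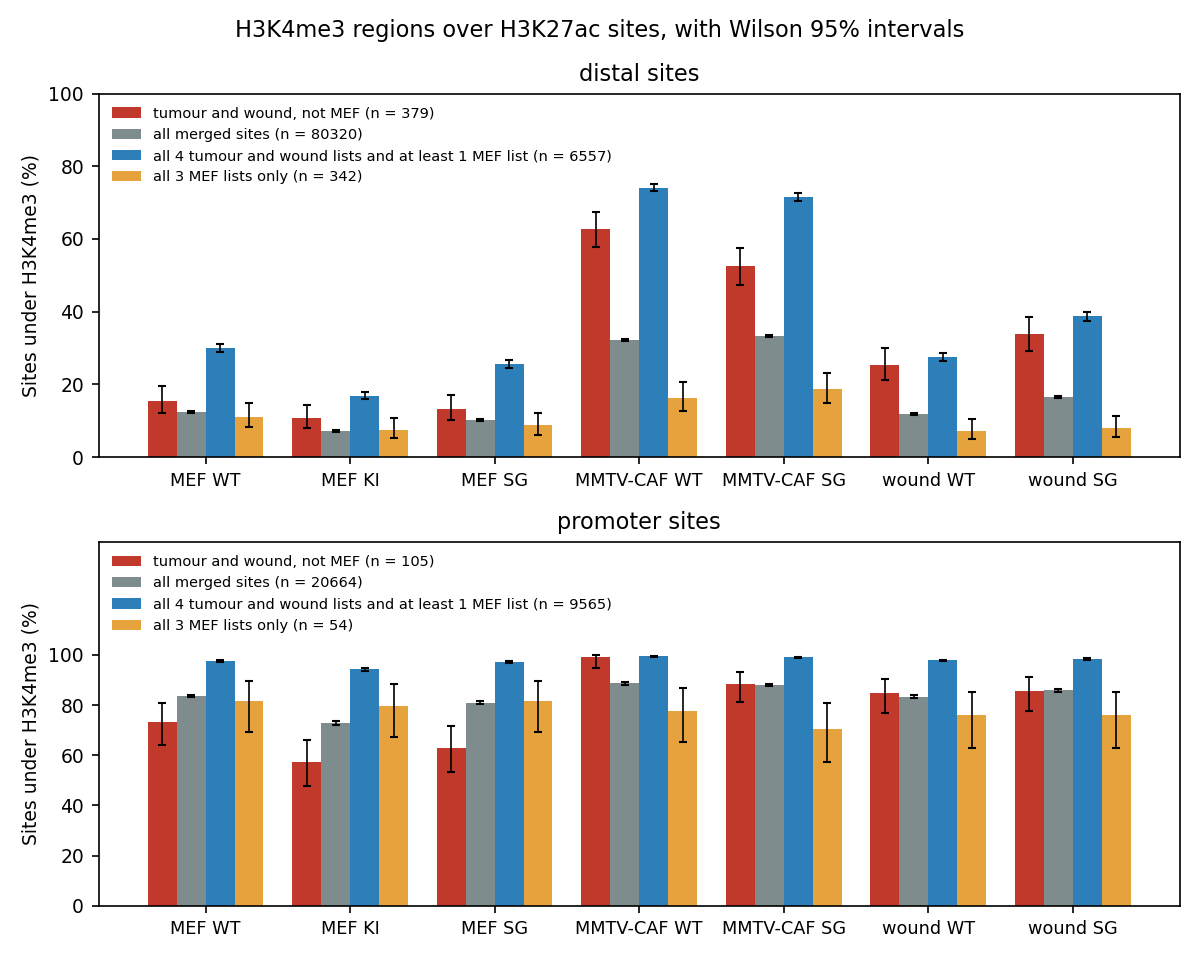
Share of H3K27ac sites overlapped by an H3K4me3 region (vertical axis, %) in each of the 7 H3K4me3 lists (horizontal axis), for distal sites above and promoter sites below, with Wilson 95% intervals. The shared sites (red) stand above all merged sites (grey) in the 4 MMTV-CAF and wound lists at distal sites, where MMTV-CAF WT reaches 62.8% against 32.1%, and below them in the MEF lists at promoter sites.

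A smaller group followed the H3K27ac pattern in both marks. H3K4me3 in all 4 MMTV-CAF and wound lists and in no MEF list was found at 40 shared sites (8.26%, 6.13 to 11.1), against 1.01% of all sites, 1.05% of the 16122 and 1 of the 396 mirror sites. With regions of at least 10 only, it was 16 shared sites (3.31%) against 0.464% of all sites. The group was 7.62% of the promoter sites (against 0.915%) and 8.44% of the distal sites (against 1.03%). The 40 sites were 8 promoters, 3 exons, 18 introns and 11 intergenic sites next to 39 genes. Of the 484 shared sites, 92 (19.0%, against 18.9% of all sites) had H3K4me3 in all 7 lists and 108 (22.3%, against 46.6%) had it in none. At promoter sites H3K4me3 in all 7 lists was found at 52.4%, against 69.8% of all promoter sites. The opposite pattern, H3K4me3 in all 3 MEF lists and none of the others, was found at 0 shared sites, which allows up to 3 of 484, against 0.0178% of all sites.

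Of the 8 promoter sites, those of Hoxb5 and Myl12a did not keep this pattern over the TSS itself. There, H3K4me3 in all 4 lists and no MEF list was found at 89 of 22238 protein-coding genes (0.400%) and at 7 of the 104 genes with a shared site within 1 kb of their TSS. These 7 were Angptl4, Hspb2, Mrgpre, Naprt, P2rx7, Tmem223 and Zfp984, and they are named because their count is small, after their values were seen. At Angptl4, a secreted inhibitor of lipoprotein lipase, the region over the TSS was 4901 bp wide in MMTV-CAF WT, 4217 bp in MMTV-CAF SG, 3399 bp in wound WT and 4194 bp in wound SG. Its promoter site at chr17:33917669-33918532 had H3K27ac values of 45.5, 61.8, 16.3 and 47.3 in that order. P2rx7, an ATP-gated ion channel, had regions of 1859, 2574, 1754 and 1724 bp, and Zfp984 (Gm13157 in the annotation), a zinc-finger gene, 1814, 1668, 1361 and 1522 bp. None of the 7 had a region over the TSS in a MEF list. At the Naprt site, though not over its TSS, MEF WT had one.

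For most genes the promoter mark was present in MEF too. Of the 302 genes that were nearest to a distal shared site within 100 kb, 247 (81.8%) had H3K4me3 over the TSS in MEF WT, against 53.2% of all protein-coding genes, 181 (59.9%) had it in MEF KI, against 41.6%, and 247 in MEF SG, against 51.5%. In the 4 MMTV-CAF and wound lists 254 to 257 genes (84.1% to 85.1%) had it, against 52.5% in MMTV-CAF WT, 53.0% in MMTV-CAF SG, 54.8% in wound WT and 55.4% in wound SG. All 7 lists had it at 179 genes (59.3%, against 39.9%) and none had it at 35 (11.6%, against 40.9%). These genes thus carried the promoter mark in MEF about as often as in the tumour and wound cells, MEF KI apart. Of the 104 genes with a shared promoter site, 90 (86.5%) had it over the TSS in MEF WT and 102 (98.1%) in MMTV-CAF WT.

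Prrx1 summits lay near a small share of the shared sites. A Prrx1 summit lay within 500 bp of an H3K27ac summit of the site at 39 sites in MMTV-CAF (8.06%, 5.95 to 10.8), against 6.19% of all sites, and at 32 in wound fibroblasts (6.61%, 4.72 to 9.18), against 3.98%. The MEF list had 1 such site (0.207%, 0.0365 to 1.16), against 1.13%. Both MMTV-CAF and wound Prrx1 were found at 12 sites (2.48%, against 1.56%), which was 30.8% of the MMTV-CAF and 37.5% of the wound members, and any of the 3 lists at 59 (12.2%, against 8.98%). The sites in all 4 lists and at least 1 MEF list lay higher, at 13.3% (MMTV-CAF) and 9.53% (wound). Leaving out 1 list in turn kept the wound share between 4.05% (without wound WT) and 7.93%, and the MEF share was 0.271% to 1.52%, highest without MEF WT.

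By class, the wound share lay above the background at distal sites only. At distal shared sites it was 29 of 379 (7.65%, 5.38 to 10.8) against 3.22% of all distal sites, and at promoters 3 of 105 (2.86%, 0.976 to 8.07) against 6.96%, which lay inside that interval. The difference between the classes was not tested. In MMTV-CAF the distal sites had 30 (7.92%, 5.60 to 11.1) against 5.55%, and the promoters 9 (8.57%) against 8.68%. Shared sites held a median of 4 H3K27ac summits and all sites 2, so the search reached farther at shared sites. Within 500 bp of the site centre alone, the MMTV-CAF share was 7.23% (5.25 to 9.89) against 5.20% of all sites, and the wound share 4.96% (3.35 to 7.27) against 3.36%. The lower ends of these intervals lay at the background. At distal sites the same measure gave 6.86% (4.72 to 9.86) against 4.66% in MMTV-CAF and 5.54% (3.65 to 8.32) against 2.70% in wound cells, and at promoters 8.57% against 7.31% and 2.86% against 5.94%. With a Prrx1 summit asked for within 250 bp, the shares were 4.55% (MMTV-CAF) and 3.72% (wound).

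**Figure D4:**
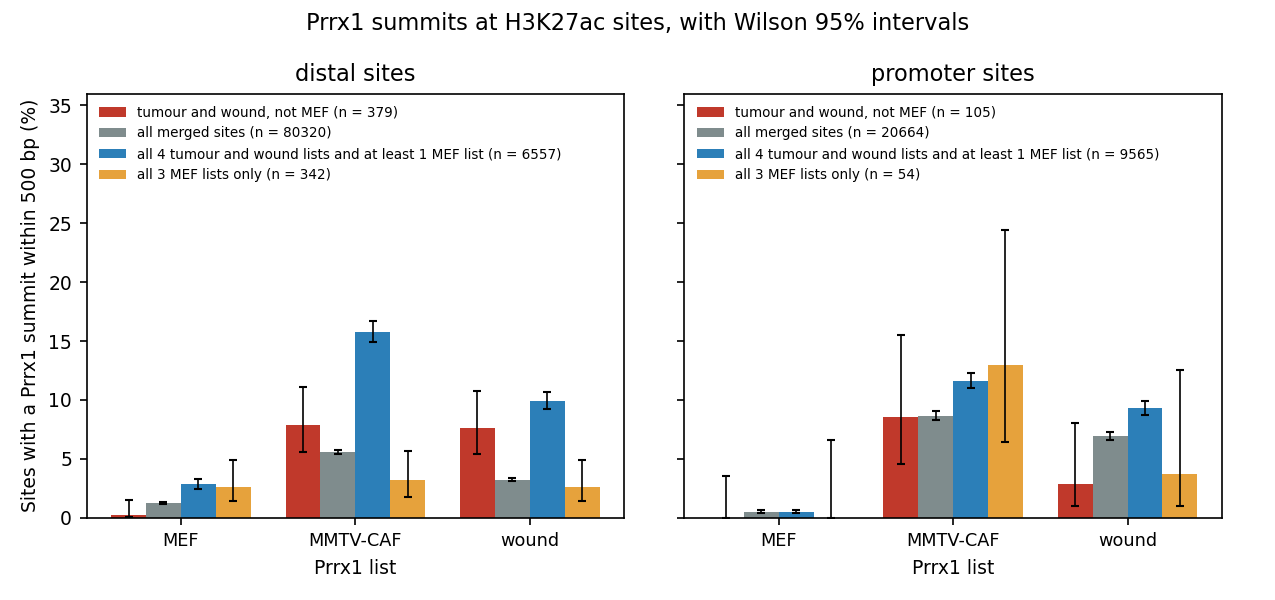
Share of H3K27ac sites with a Prrx1 summit within 500 bp (vertical axis, %) for the MEF, MMTV-CAF and wound Prrx1 lists (horizontal axis), at distal sites on the left and promoter sites on the right, with Wilson 95% intervals. Distal shared sites (red) reach 7.92% (MMTV-CAF) and 7.65% (wound), above all distal sites (grey) and below the distal sites that MEF also had (blue).

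At the 5 sites with the best Prrx1 ranks in both types, the nearest or host genes had diverse roles. The site at chr5:118830424-118831088 was intergenic, 135 kb from the TSS of Spring1 (2410131K14Rik in the annotation), with a Prrx1 −log10 p of 13.2 in MMTV-CAF and 6.32 in wound fibroblasts. At the intron of Tet1, an enzyme that oxidises methylated cytosine, it was 8.51 and 6.32, and at the Zfp984 promoter 8.53 and 6.27. The Col4a1 intron, in a gene for basement membrane collagen, had 11.2 and 5.29, and the promoter site of Gnas, the stimulatory G protein alpha subunit, 6.45 and 6.32. The median over all Prrx1 summits was 6.94 in MMTV-CAF, so that only the Gnas value lay below it, and 6.32 in wound fibroblasts, which no value at these 5 sites exceeded. The Tet1 and Zfp984 sites lay 58.8 and 38.2 kb from the nearest MEF H3K27ac summit, and the other 3 between 0.563 and 2.62 kb.

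The 1 shared site with a MEF Prrx1 summit was in an intron of Ppm1h, a protein phosphatase, at chr10:122348504-122349069, and had Prrx1 in all 3 types, with values of 9.97 (MEF), 5.75 (MMTV-CAF) and 10.1 (wound). The best-ranked site of all, in Rnd3, also had Prrx1 in both MMTV-CAF (5.80) and wound fibroblasts (5.39). Of the Prrx1 summits at shared sites, TAATTA lay within 100 bp of 11 of 39 in MMTV-CAF (28.2%, against 35.5% of all Prrx1 summits of that list) and of 6 of 32 in wound fibroblasts (18.8%, against 41.9%).

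Prrx1 itself gained no shared site. Of the 50 merged H3K27ac sites nearest to its TSS, 0 were held by all 4 MMTV-CAF and wound lists, while 16606 of all 100984 sites were. These lists include the SG cells, in which Prrx1 itself was targeted. The count covers single sites common to the lists and does not show that the locus was inactive. H3K4me3 lay over the Prrx1 TSS in every list, from 4558 bp wide (MEF KI) to 15484 bp (MMTV-CAF SG). The study reports super-enhancers, which it maps from H3K27ac, at Prrx1 in each fibroblast type. The marks read here do not measure Prrx1 protein or its loss, so the deletion in SG cells was not checked with them.

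DNA letters were searched on both strands within 250 bp of the site centre. At distal shared sites TAATTA was present in 22 of 379 (5.80%, 3.86 to 8.63), against 9.93% of all distal sites, 7.18% of the distal sites in all 4 lists and at least 1 MEF list, and 11.4% of the distal mirror sites (8.45 to 15.2). The AP-1 letters TGANTCA were present in 83 (21.9%), against 20.5% of all distal sites. The Tead letters GGAATG (28.0%, against 27.9%), the Runx letters TGTGGT (32.2%, against 34.3%) and the C/EBP letters TTGC, 2 of any base, then AA (17.7%, against 19.4%) stood as near to it, each background lying inside the interval of the shared sites. The GC-rich SP/KLF letters GGGCGG were present in 47 (12.4%, 9.46 to 16.1), against 9.34%. Base composition differed alongside, with a median GC content of 50.1% at distal shared sites and 46.9% at all distal sites, and its part in the TAATTA and GGGCGG shares was not tested. The TAATTA share over all 484 sites was 5.58%, against 8.84% of all sites. Without the wound WT list it was 9.78%, above that background, which was not recomputed without the list.

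**Figure D5:**
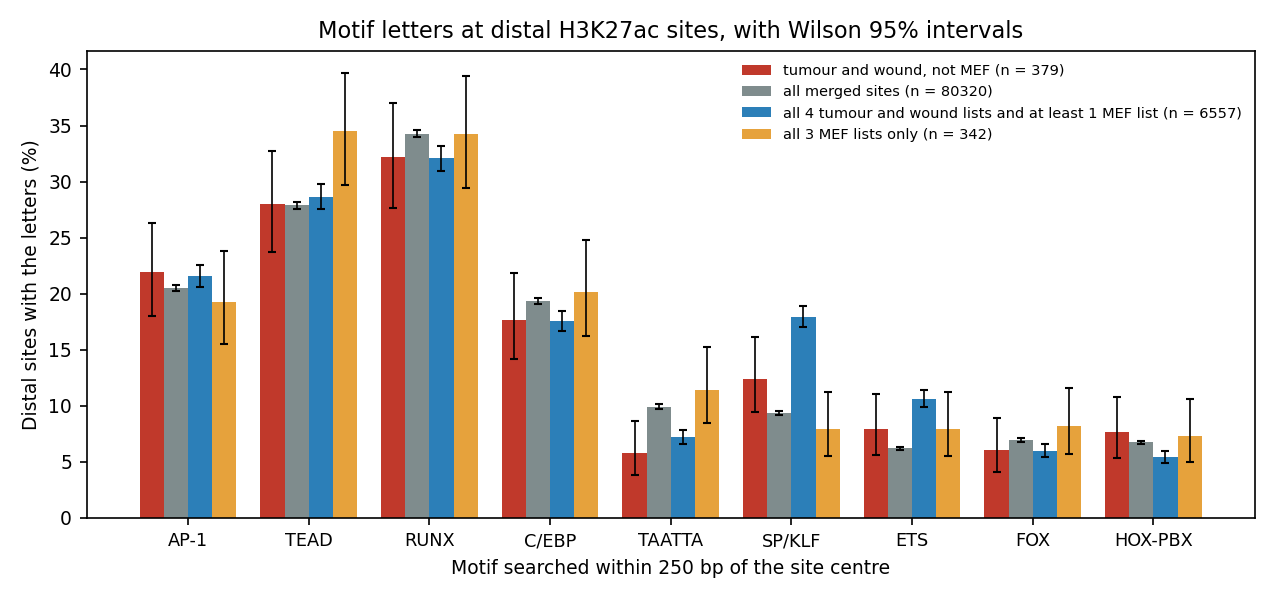
Share of distal sites holding the letters of 9 of the 14 motifs searched (vertical axis, %), by motif (horizontal axis), with Wilson 95% intervals. The shared sites (red) lie near all merged sites (grey) at AP-1, TEAD, RUNX and C/EBP, and below them at TAATTA, where they have 5.80% against 9.93%. The other letters are CCGGAA (ETS, 7.92% against 6.20%), TGTTTAC (FOX, 6.07% against 6.92%) and TGATT, any base, then AT (HOX-PBX, 7.65% against 6.72%).

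The shared sites were spread over many genes. They were nearest, within 100 kb, to 397 of 22238 protein-coding genes (1.79%), with 49 genes nearest to at least 2 and 4 genes nearest to 3, and 34 sites had no TSS within 100 kb. The 4 were Ehd1, which recycles endocytosed receptors, Plcd3, a phospholipase C, Tnk2, a non-receptor tyrosine kinase, and Pknox2, a homeodomain partner of Hox proteins. Of the genes with 2 sites, the fixed rule named Myl12a, a regulatory light chain of non-muscle myosin, because its symbol in the annotation (2900073G15Rik) sorts first.

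At Ehd1 the 3 sites had −log10 p values of 5.46 to 21.7 and H3K4me3 in no list, and at Plcd3, inside its neighbour Nmt1, values of 7.27 to 25.3 with H3K4me3 at 1 site in MMTV-CAF SG only. The Pknox2 sites had 7.57 to 25.2, and over the Pknox2 TSS, as at the 7 genes above, H3K4me3 was found in all 4 MMTV-CAF and wound lists (2961 to 3372 bp wide) and in no MEF list. The Tnk2 sites had 9.14 to 47.4, with H3K4me3 at 2 of them in MMTV-CAF WT only. At Myl12a the promoter site had 16.4, 23.5, 17.2 and 23.5 in MMTV-CAF WT, MMTV-CAF SG, wound WT and wound SG, with H3K4me3 in these 4 lists at the site and in no MEF list. Neighbouring shared sites within 50 kb of each other formed 47 pairs and 8 groups of 3, which held 118 of the 484 sites. The 3 tightest groups of 3 were Plcd3 (13.7 kb from first to last centre), Ehd1 (14.1 kb) and a stretch of Mid1, a microtubule-bound ubiquitin ligase (16.9 kb), where all 3 sites had H3K4me3 in the 4 lists and in no MEF list.

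Most members of the gene lists for fibroblast activation were nearest to no shared site. The part with one was 27.3% of the Tead and Yap list, 21.1% of collagens and 15.4% of both Hox and AP-1 genes. It was 10.3% of growth factors and receptors and 10.0% of proteases and inhibitors. Of all protein-coding genes 1.79% had one, and the parts of these lists rest on 2 to 6 genes each. Hox genes had the most by number, and Tead, Yap and their targets the largest part of a list. Of 19 collagen genes 4 had one (Col4a1, Col4a2, Col5a1 and Col6a1), the basement membrane pair included. These 4 sites were 0.826% of the shared sites, while 0.468% of all sites and 0.310% of the 16122 lay nearest to a listed collagen. The Col5a1 intron site was weak, with 7.41, 7.54, 14.4 and 18.8 in MMTV-CAF WT, MMTV-CAF SG, wound WT and wound SG. No site lay nearest to Col1a1, Col1a2 or Col3a1.

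Of 39 Hox genes 6 had a shared site (1.24% of the shared sites, against 0.196% of all sites and 0.112% of the 16122). Hox genes give cells their position along the body. Hoxb8, Hoxb5 and Hoxb4 formed 1 of the groups of 3, over 35.0 kb, and shared a neighbourhood, as did Hoxc13 and Hoxc11, which formed a pair within 50 kb, so the 6 genes lie in 3 neighbourhoods and are not independent of each other. The Hoxc13 promoter site had values of 69.7 (MMTV-CAF WT) and 66.0 (MMTV-CAF SG) but 14.4 (wound WT) and 12.3 (wound SG). At the Hoxb5 promoter the wound values were the higher ones, 16.3 (WT) and 35.8 (SG), beside 10.7 and 10.1 for MMTV-CAF. Hoxa2 (20.4 to 67.5) and Hoxc11 (13.2 to 30.0) had the others. H3K4me3 lay over the Hoxa2, Hoxb4, Hoxb8 and Hoxc13 sites in MEF WT as well, and over the Hoxb5 and Hoxc11 sites in no MEF list.

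Of the Tead and Yap list 3 of 11 had one: Tead1 (6.82 to 17.1), the Hippo kinase Lats2 (9.15 to 52.0) and Amotl2, a Yap-binding scaffold and target, at its promoter (30.6 to 61.4). These were 0.620% of the shared sites, against 0.271% of all sites and 0.205% of the 16122. Of 13 AP-1 genes 2 had one, Junb (9.97 to 44.0) and Fosl2 (8.41 to 28.3), and the Fosl2 site had a Prrx1 summit of 8.84 in MMTV-CAF. The AP-1 genes made up 0.413% of the shared sites, against 0.149% of all sites and 0.124% of the 16122. Of these genes only Amotl2 was above 30 in all 4 lists.

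Of 29 growth factors and receptors 3 had a site, the mitogen Fgf2 (14.4 to 38.9, with a Prrx1 summit of 8.99 in MMTV-CAF), its receptor Fgfr1 (7.44 to 16.4) and Fgf18 (5.76 to 10.7), which made 0.620% of the shared sites against 0.497% of all sites and 0.316% of the 16122. Of 20 proteases and inhibitors 2 had one, the collagen cross-linking enzyme Loxl2 (6.80 to 14.9) and the protease inhibitor Timp3 (9.15 to 20.4), which made 0.413% against 0.217% and 0.174%. Of 17 epithelial markers Trp63 had 1 site, 96.7 kb from its TSS (0.207% of the shared sites, against 0.106% of all sites and 0.0744% of the 16122). None was found for the 18 matricellular, 16 contractile, 20 cytokine, 20 Wnt, 9 leukocyte, 7 endothelial and 7 mural genes. Acta2, Tagln, Fn1, Postn and Il6 are thus among the listed genes without a shared site, where all merged sites had 337 near the matricellular, 285 near the contractile and 365 near the cytokine list. The background was 1.79% of all genes, so a list of this size with 0 genes is not a result about it.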

How the data were processed

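Per the labels and the study's methods, Trimmomatic, Bowtie (mm9), Picard to drop duplicates, and MACS2 with the corresponding input (7 inputs for 17 ChIP libraries) were the tools of the authors. For H3K27ac and Prrx1 the deposited files give single-base summit positions, each scored by its −log10 p-value. For H3K4me3 the deposited files give wide regions, scored by fold over input and by −log10 p-value. Of 24 samples, 17 had a list used here, and the 7 inputs were not used. Whether the Prrx1 lists pool duplicate ChIPs is not stated. Prrx1 summits reach down to a −log10 p of 3.00 and H3K27ac summits to 5.00.

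Summits were merged with windows of 250 bp. The site centre was the strongest summit. Promoter sites had a protein-coding TSS of GENCODE vM1 at most 1 kb from the centre, on NCBIM37. Current symbols from RefSeq names matched 478 of 484 sites. Strengths are the authors' scores. With 1 library a group no test was run, and Python 3.11.15, numpy 2.4.6, pandas 2.3.3 and scipy 1.17.1 gave counts and Wilson 95% intervals. The merging was checked on simulated lists. The members and gene lists were chosen with earlier results of these data known. Named sites followed a rule: the 10 sites and 10 promoters with the best worst rank over the 4 lists, the 5 sites with the best Prrx1 ranks in both types, the 5 genes nearest to most sites, the 3 tightest groups, and Prrx1. Listed genes with a site are given with their list, and some results for the TGF-beta and the regional factor lists are not reported here. Alternatives varied the window, the −log10 p, the distance from MEF summits, the list size, each list left out, and the promoter, Prrx1, H3K4me3, motif and gene definitions.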

Additional observations from a re-analysis of the deposited data

Results flagged for a closer look

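The share of the 484 shared sites under H3K4me3 moved in opposite directions between WT and Prrx1-targeted (SG) cells of the 2 activated fibroblast types, which is why it is given here. The difference was not tested, since each group is 1 library. In MMTV-CAF it fell by 10.3 percentage points, from 70.7% to 60.3%, with 83 sites under H3K4me3 in WT only and 33 in SG only. In wound fibroblasts it was 6.82 points higher in SG, from 38.2% to 45.0%, with 42 sites in SG only and 9 in WT only. In MEF the share was lower in SG (a change of -4.13 points, against -2.26 over all sites) and in KI (-7.23, against -6.41). Over all 100984 sites the change was 0.789 points in MMTV-CAF and 4.20 points in wound fibroblasts, and at the 16122 sites in all 4 lists and at least 1 MEF list it was -1.23 and 4.83 points. With H3K4me3 regions of a −log10 p of at least 10 only, MMTV-CAF had 37.8% (WT) and 36.8% (SG), and wound fibroblasts 26.0% (WT) and 26.4% (SG).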

How the results depend on the processing

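The 11 results were recomputed under 12 to 16 alternatives each, 155 values in all, of which 89 stayed within the interval of the value reported (for counts, within 1.5 times) and 66 moved beyond it, and the cause was not tested unless the alternative changes the number of sites by its own construction. The Prrx1 and H3K4me3 measures at the site centre were added after the data were seen. WT and SG libraries of the 3 types could be paired by type, but a test of WT against SG over the 3 types was not run. The shares and counts reported come from no test that a block could enter.

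Windows of 100 bp gave a promoter share of 35.7% and H3K4me3 shares of 41.4% in MEF WT and 49.1% in wound WT. Windows of 500 bp gave 309 sites near 260 genes, 14.9% promoters, and H3K4me3 at 21.0% in MEF WT and 32.4% in wound WT. A −log10 p of at least 10 in the 4 lists left 217 sites near 199 genes, with 30.4% promoters, wound Prrx1 at 9.68% and H3K4me3 at 43.3% (MEF WT), 80.2% (MMTV-CAF WT) and 52.5% (wound WT). No MEF summit within 2 kb left 210 sites near 172 genes, with 15.2% promoters, MEF Prrx1 at 0 of 210 and H3K4me3 at 14.3%, 66.2% and 28.1% in the same order. Lists cut to 29325 summits gave 285 sites near 246 genes, with 32.3% promoters, Prrx1 at 1.40% in MEF and 12.6% in MMTV-CAF, H3K4me3 at 40.4%, 82.8% and 50.2%, and AP-1 letters at 15.1%. A promoter distance of 2 kb gave 32.6%. Prrx1 within 250 bp gave 4.55% in MMTV-CAF and 3.72% in wound fibroblasts, and within 1 kb 11.4% in MMTV-CAF. H3K4me3 regions of at least 10 gave 23.3%, 37.8% and 26.0%, and regions over the site centre 64.7% in MMTV-CAF WT. Motifs within 100 bp were found at 5.17% (AP-1) and 0.826% (TAATTA).

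Leaving out 1 list in turn gave 722 to 1656 sites near 567 to 1234 genes, 17.1% to 26.1% promoters, Prrx1 at 0.271% to 1.52% (MEF), 6.72% to 10.5% (MMTV-CAF) and 4.05% to 7.93% (wound), H3K4me3 at 25.7% to 36.1% (MEF WT), 60.8% to 72.3% (MMTV-CAF WT) and 30.4% to 42.5% (wound WT), AP-1 at 17.3% to 19.7% and TAATTA at 5.49% to 9.78%. The wound WT list set the highest number of sites, the highest TAATTA share and the lowest wound Prrx1 share. The MEF Prrx1 shares rest on 2 to 13 sites, with 13 when the MEF WT list was left out.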

Other observations

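Over the genome 0.479% of all merged sites were shared sites. Chromosome 11 held 43 (0.639% of its sites) and chromosome 2 held 42 (0.509%). Chromosome 19 held the highest share (25 of 3212, 0.778%) and chromosome 13 the lowest of the chromosomes with a shared site (5 of 3919, 0.128%).

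A few genes outside the lists, noticed after their values were seen, had both marks at the site in all 4 MMTV-CAF and wound lists and no H3K4me3 in MEF. The site 4.24 kb from the TSS of Dlx2, a homeodomain factor of craniofacial mesenchyme, had H3K27ac values of 63.8 (MMTV-CAF WT), 79.2 (MMTV-CAF SG), 28.7 (wound WT) and 44.5 (wound SG), and a wound Prrx1 summit of 4.50. A MEF H3K27ac summit lay 821 bp from the Dlx2 site. An intron site of Snx10, a sorting nexin, had 28.5, 80.6, 18.2 and 28.1 in MMTV-CAF WT, MMTV-CAF SG, wound WT and wound SG, and lay 19972 bp from the nearest MEF summit, with a wound Prrx1 summit of 5.39.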
